A study of Mus musculus with 4 samples.

Results

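RNA polymerase II (Pol II) occupancy was examined at 502 strong peaks with signal on both sides, of 4684 strong peaks in all (10.7%). A strong peak was a 1 kb bin of chromosomes 1 to 19 that held at least 100 tags over the 4 libraries together and no fewer than any bin within 10 kb. Its sides were the bins 2 to 10 kb away, 9 on the left and 9 on the right, and a peak was kept when both sides held 90 tags or more and the larger side held less than 2 times the smaller. The peaks were selected on tags pooled over the libraries, so their pooled height and the pooled evenness of their sides are descriptions. The rule did not read how the tags of a peak were divided among the libraries. A library with more tags still weighed more in the pooled sums. In what follows the strong bin is the centre, and the 18 side bins are the flanks.

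Chromatin immunoprecipitation and sequencing (ChIP-seq) measured Pol II with an antibody to the N-terminus of its largest subunit, Rpb1, which binds whatever the phosphorylation of the enzyme. The libraries came from V6.5 mouse embryonic stem cells (C57BL/6-129) that carried, for about 4 days, a hairpin that targeted Spt4 (the library shSpt4), Spt5 (shSpt5) or the NELF subunit NelfE (shNelfE), or else a control hairpin (shControl). All 4 cultures, the control included, received flavopiridol at 1 µM for 1 h before crosslinking, so no culture without the drug was compared. There was 1 library per group, no difference has a replicate check, and no p-value is given. The cells had grown for 2 passages off feeder cells in the knockdown cultures and for 1 passage in shControl, and shControl came from another flow cell. In each comparison with shControl the hairpin cannot be told apart from these differences. Feeder cells are fibroblasts, and their share in each culture was not measured, nor was the level of the targeted proteins.

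Pol II pauses shortly after it starts transcription, close to the promoter. Spt4 and Spt5 together form DSIF, which binds the elongating enzyme, and NelfE is a subunit of NELF, which holds it at the pause together with DSIF. The kinase Cdk9 phosphorylates both complexes and the tail of Rpb1 and thereby releases the enzyme into the gene body. Flavopiridol inhibits Cdk9. Spt5 also stays with Pol II during elongation, as the conserved core of DSIF, whereas NELF leaves at the release. The antibody to Rpb1 does not tell enzyme that has started from enzyme that has not, so sharp signal at promoters may hold both. Signal spread over many kb may come from elongating enzyme, from several promoters close together or from enzyme past the gene end. The files carry no gene annotation of their build, mm8, so peaks are given by position and none was assigned to a promoter or a gene body. Positions are in the numbering of the files, which do not say whether counting starts at 0 or 1.

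After repeated positions were reduced to 1 tag, the libraries held 2646944 tags (shSpt4), 3116313 (shSpt5), 2938052 (shNelfE) and 3170090 (shControl). Repeated reads made up 8.13% to 17.7% of the libraries, with the highest share in shSpt5. Tags were scaled to 1000000 kept tags per library and are called normalised tags. In 624 windows of 1 Mb without any bin of 30 pooled tags, shSpt4 had 1.32 times, shSpt5 1.54 times and shNelfE 1.27 times the normalised tags of shControl. Each knockdown library thus had more of its tags in such windows than shControl, and its part in the ratios below was not tested beyond the scalings given.

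The centres together took 1.12% of the tags of shSpt4, 0.794% of shSpt5 and 1.04% of shNelfE, against 1.38% of shControl. The 21 kb spans from 10 kb left to 10 kb right took 3.18%, 2.61% and 3.18% in the knockdowns in the same order, against 3.94% in shControl. A single member centre held from 100 to 1421 pooled tags, with a median of 191, close to the median of 189 over all strong peaks. The flanks held from 183 to 2834 pooled tags with a median of 296, against 132.5 over all strong peaks. In a typical member the centre had 16.6 normalised tags for shSpt4, 11.9 for shSpt5 and 15.7 for shNelfE, against 21.3 in shControl. The middle 50% of members ran from 11.7 to 26.7, from 8.02 to 18.9 and from 11.2 to 24.5 in those knockdowns, against 15.1 to 34.1 in shControl. The ranges overlapped widely, and the median was lowest in shSpt5.

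**Figure D1:**
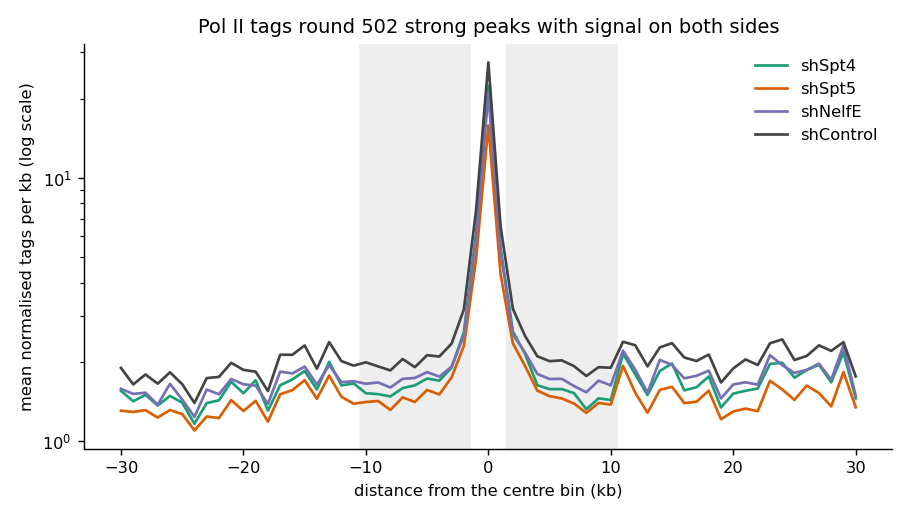
Mean normalised tags per kb (log scale) in 1 kb bins from 30 kb left to 30 kb right of the centres of the 502 peaks, a line per library, with the flank bins shaded. The lines of the knockdown libraries lie under that of shControl at the centre and in the flanks, and at the centre the order from low to high is shSpt5, shNelfE, shSpt4 and shControl.

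At the centre, each of the 3 knockdown libraries had less Pol II signal than shControl, and shSpt5 had least. The median ratio to shControl was 0.791 for shSpt4, 0.559 for shSpt5 and 0.728 for shNelfE, when scaled by all kept tags. The middle 50% of ratios ran from 0.629 to 0.986 for shSpt4, from 0.40 to 0.722 for shSpt5 and from 0.626 to 0.860 for shNelfE. The ratio was under 1 at 77.3% of members in shSpt4, at 92.4% in shSpt5 and at 86.7% in shNelfE. Summed over the centres, the ratio was 0.814 for shSpt4 (95% interval 0.802 to 0.826), 0.576 for shSpt5 (0.567 to 0.585) and 0.758 for shNelfE (0.747 to 0.769). These intervals are exact binomial (Clopper-Pearson). Like all intervals of a ratio here, they cover counting error alone and not the spread between cultures, as each group had 1 library. Copies made by PCR are not independent molecules, and repeated positions were counted as 1 tag.

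A single peak was called lower when its ratio was at most 0.5 and its interval excluded 1, and higher at a ratio of at least 2. In shSpt5, 202 members were called lower at the centre (40.2%), where the same call over all strong peaks took 31.7%, and 5 were called higher, with 0.32% over all strong peaks. In shSpt4, 61 members were called lower (12.2%, against 6.32% over all strong peaks) and 9 higher (0.427% over all). In shNelfE, 39 were called lower (7.77%, against 5.34%) and none higher, with 0.0213% called higher over all strong peaks. The lower calls were thus a larger share of members than of all strong peaks in each knockdown library. Peaks with signal on one side had a side of 90 tags or more that was at least 2 times the other. Of these, 9.06% were called lower for shSpt4, 33.2% for shSpt5 and 4.63% for shNelfE, the first 2 also above all strong peaks. The library shControl gave 43657 of the 128730 pooled centre tags, the most of any, and so weighed most in the choice of members. Chosen on the knockdown libraries alone, 9.85% of 406 members were called lower for shSpt4, 33.7% for shSpt5 and 5.91% for shNelfE, against 4.17%, 27.4% and 3.58% of the 4241 strong peaks found that way.

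Strong peaks in general had lower centres too. Over all 4684 the median log2 ratio at the centre was -0.27 for shSpt4, -0.75 for shSpt5 and -0.44 for shNelfE. Members were at -0.34, -0.84 and -0.46, which leaves -0.071, -0.090 and -0.022 once each library is scaled by its median strong peak. Under that scaling 5.38% of members were called lower for shSpt4, 11.2% for shSpt5 and 1.20% for shNelfE, against 2.58%, 6.17% and 0.576% of all strong peaks. Scaled by the 624 windows instead, the medians were -0.74, -1.46 and -0.80.

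Flank signal was also lower than in shControl per kept tag, though not relative to the median strong peak in shSpt5 and shNelfE. Its median ratio to shControl was 0.806 for shSpt4, 0.745 for shSpt5 and 0.851 for shNelfE, when scaled by all kept tags. Over all strong peaks it was 0.941, 0.968 and 0.970. Peaks with signal on one side, the most similar kind, were closer to the members, at 0.849, 0.771 and 0.862. In log2 the members' flank medians were -0.31 for shSpt4, -0.42 for shSpt5 and -0.23 for shNelfE, and scaled by the median strong peak they were -0.044 in shSpt4 but turned to 0.33 in shSpt5 and 0.20 in shNelfE. Flank signal was thus lower in shSpt5 and shNelfE per kept tag, and higher relative to the typical strong peak. The typical member held 23.4 normalised flank tags for shSpt4, 22.8 for shSpt5 and 25.4 for shNelfE, against 29 in shControl.

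Flank calls were few. In shSpt5, 43 members were called lower (8.57%, against 3.44% over all strong peaks) and 1 higher (3.71% over all). In shSpt4, 19 were called lower (3.78%, against 1.99%) and 1 higher (1.81% over all). In shNelfE, 1 was called lower (0.199%, against 0.705%) and none higher (1.52% over all). At peaks with signal on one side, 1.71% were called lower for shSpt4, 8.36% for shSpt5 and 0.302% for shNelfE. There 0.604%, 0.403% and 0.101% were called higher. The share called lower in shSpt5 was thus about the same at those peaks as at members. Strong peaks with low flanks, both sides under 90 pooled tags, had flank medians of 1.03 for shSpt4, 1.13 for shSpt5 and 1.08 for shNelfE. The ratios in the 624 windows were higher still.

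**Figure D2:**
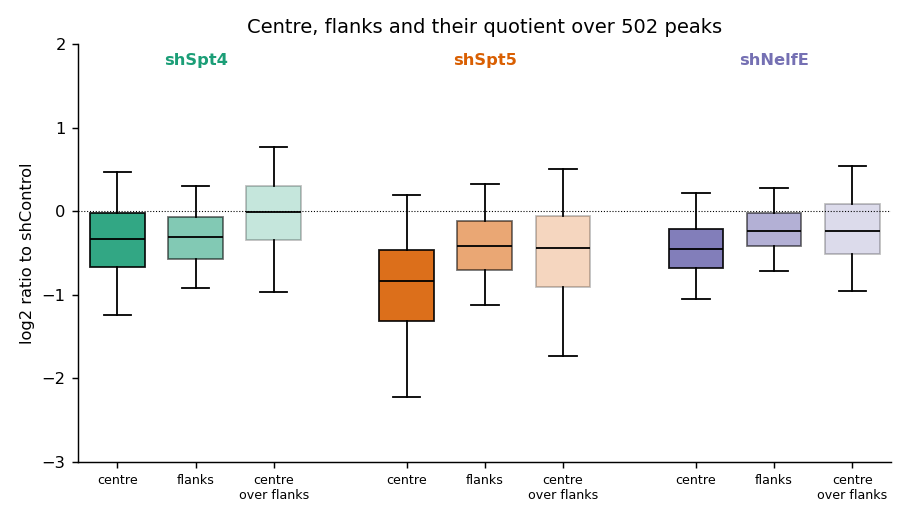
Log2 ratio to shControl of the centre, the flanks and the centre over the flanks at the 502 peaks, with boxes for the middle 50%, lines at the median and whiskers from the 5th to the 95th percentile. Scaled by all kept tags, the medians at the centre are -0.34 for shSpt4, -0.84 for shSpt5 and -0.46 for shNelfE, and those of the flanks are -0.31, -0.42 and -0.23, of which the last 2 turn to 0.33 and 0.20 when scaled by the median strong peak.

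The quotient of centre and flanks does not depend on the scaling of the libraries. In shSpt4 centre and flanks were lower to about the same degree, with a median log2 difference of -0.02 from shControl (middle 50% from -0.35 to 0.30). In shSpt5 the centre was lower than the flanks, with a median of -0.44 (-0.91 to -0.05). The value in shNelfE was between these, at -0.24 (-0.51 to 0.09). The quotient was under that of shControl at 51.6% of members for shSpt4, 77.9% for shSpt5 and 68.1% for shNelfE. Over all strong peaks the medians were further from 0, at -0.22, -0.73 and -0.40, whereas peaks with signal on one side had -0.08, -0.44 and -0.20, near the members. As densities, the centre held 11.4 times the tags of an average flank bin in shSpt4, 8.63 times in shSpt5 and 9.97 times in shNelfE, against 12.3 times in shControl. With the tag density of the 624 windows taken off, the median in shSpt5 was -0.35.

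Since all knockdown libraries came from the same flow cell, they were also set against each other. At the centre shSpt5 was lower than shSpt4, with a median ratio of 0.697. There 103 members were called lower (20.5%, against 13.9% over all strong peaks) and 4 higher (0.299% over all). Against shSpt5, shNelfE was higher, with a median of 1.32, and 92 members were called higher (18.3%, against 11%) and 11 lower (0.619% over all). Between shNelfE and shSpt4 the median was 0.928, with 22 called lower (2.31% over all) and 16 higher (1.52% over all). Its log2 of -0.11 turned to 0.061 when scaled by the median strong peak, so no order of these libraries at the centre stands under every scaling. The other comparisons at the centre kept their direction under that scaling but came close to 0, at -0.038 for shSpt5 over shSpt4 and 0.082 for shNelfE over shSpt5.

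In the flanks the knockdown libraries were closer to each other. The median ratio was 0.952 for shSpt5 over shSpt4, with 10 members called lower (1.26% over all strong peaks) and none higher (2.6% over all). For shNelfE over shSpt4 it was 1.06, with 1 called lower (1.20% over all) and 3 higher (1.47% over all). For shNelfE over shSpt5 it was 1.13, with none called lower (2.01% over all) and 16 higher (1.67% over all). In log2 these medians were -0.07, 0.09 and 0.18, and scaled by the median strong peak they were 0.41, 0.26 and -0.13, so that the first and the last changed direction. The centre over flank quotient, free of scaling, was 0.755 times as high in shSpt5 as in shSpt4, 0.906 times in shNelfE as in shSpt4 and 1.18 times in shNelfE as in shSpt5, as medians over members.

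The reach of these differences was read from bins pooled over members. Pooled signal fell from 256 tags in the centre bin to 68.5 per kb in the neighbouring bins, 25.8 at 2 to 4 kb, 20.2 at 5 to 7 kb and 18.9 at 8 to 10 kb. It then stayed at 20.7 per kb from 11 to 20 kb and 19.7 from 21 to 30 kb, bins the choice of members did not read. Strong peaks with low flanks had 8.10 and 8.89 per kb at those distances, and those with signal on one side, where the larger side was at least 2 times the other, had 14.5 and 14.7. Pooled signal round members thus went on past the window that chose them. These farther bins can hold other strong peaks, and at 157 members (31.3%) the nearest lay within 20 kb. The part of such neighbours in this level was not tested.

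In shSpt5 the ratio to shControl was lowest at the centre and levelled off within about 4 kb. It was 0.576 in the centre bin, 0.655 at 1 kb, 0.740 at 2 to 4 kb and 0.727 at 5 to 7 kb. From 11 to 20 kb it was 0.720 (0.711 to 0.728) and from 21 to 30 kb it was 0.713 (0.704 to 0.722). In shNelfE the ratio was 0.758 at the centre, 0.793 at 1 kb, 0.826 at 2 to 4 kb, 0.860 at 5 to 7 kb and 0.865 at 21 to 30 kb. In shSpt4 it lay between 0.768 and 0.831 over these ranges of distance, though single 1 kb bins ran from 0.748 to 0.929, with 0.814 at the centre and 0.831 at 21 to 30 kb. At members the dip at the centre was therefore seen in shSpt5 and, to a smaller extent, in shNelfE. It was not particular to members. From the centre to 2 to 4 kb, peaks with signal on one side went from 0.616 to 0.750 in shSpt5 and from 0.775 to 0.846 in shNelfE. Peaks with low flanks went from 0.855 to 1.04 in shSpt4, from 0.616 to 1.13 in shSpt5 and from 0.749 to 1.05 in shNelfE. From 21 to 30 kb, peaks with low flanks had ratios of 0.935 for shSpt4, 0.873 for shSpt5 and 0.928 for shNelfE.

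**Figure D3:**
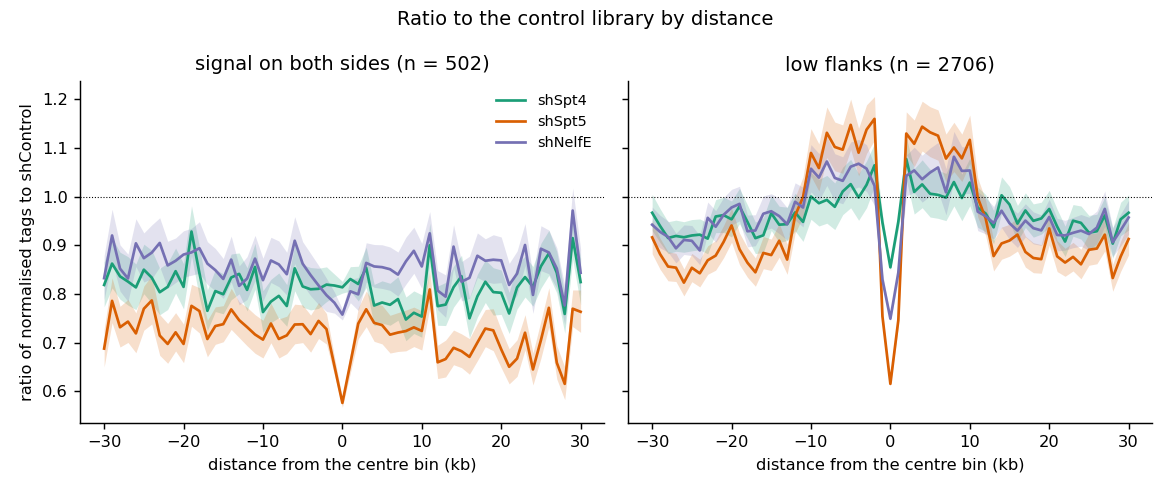
Ratio of normalised tags to shControl by distance from the centre (kb) for peaks with signal on both sides and for peaks with low flanks, a line per knockdown library with a band for the exact 95% counting interval, scaled by all kept tags. Members stay under 1 out to 30 kb, with a dip at the centre in shSpt5 and a smaller one in shNelfE. Peaks with low flanks dip at the centre too, and lie near or above 1 within the 2 to 10 kb that defined them. The step at 10 kb is at the edge of that window.

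Flank signal came in different shapes. A side was said to hold a second peak when its highest bin had 30 pooled tags or more and at least 1/3 of the side. Of the members, 233 had no such bin (46.4%), 186 had one on 1 side (37.1%) and 83 on both sides (16.5%). Among all strong peaks the shares were 75.9%, 21.4% and 2.69%. Peaks with signal on one side had 37.3%, 58.7% and 4.03%, so a smaller share of them than of members lacked such a bin. Of peaks with low flanks 96.0% lacked such a bin, and these made up 57.8% of all strong peaks. Members with second peaks on both sides had more pooled tags, with a median of 257 in the centre and 440 in the flanks, against 183 and 265 in members without one.

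In shSpt5 and shNelfE the 352 second peak bins had ratios closer to those of the centres than to those of other flank bins. Their summed ratio to shControl was 0.771 for shSpt4 (0.750 to 0.793), 0.598 for shSpt5 (0.582 to 0.616) and 0.736 for shNelfE (0.717 to 0.757). The other bins of the same sides had 0.833, 0.792 and 0.869. Sides without a second peak had 0.794, 0.757 and 0.879. In shSpt5 and shNelfE the concentrated bins of the flanks were thus lower than the spread signal round them, as the centres were. In normalised tags per kb, second peak bins held 8.99 for shSpt4, 6.97 for shSpt5 and 8.58 for shNelfE, against 11.7 in shControl.

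With second peaks defined in this way, centre ratios varied little with the shape of the flanks. In shSpt5 the median was 0.593 in members with second peaks on both sides, 0.585 with one on 1 side and 0.535 with none. The corresponding values in shSpt4 were 0.801, 0.793 and 0.782. In shNelfE they were 0.732, 0.722 and 0.735. Flank ratios in shSpt5 were 0.701, 0.731 and 0.772 over the same groups.

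Many members lay in longer stretches of signal. The run of bins with 10 or more pooled tags round the centre had a median of 8 kb (middle 50% from 5 to 12 kb), against 3 kb over all strong peaks. At peaks with signal on one side the median run was 5 kb. In 38 members the run covered 21 kb or more. In these the centre ratio was 0.712 for shSpt4, 0.567 for shSpt5 and 0.750 for shNelfE, and the flank ratio was 0.767, 0.736 and 0.887. In the 106 members whose run was under 5 kb the centre ratios were 0.855, 0.556 and 0.782, and the flank ratios 0.849, 0.768 and 0.874. Only in shSpt4 did the centre medians of these groups lie more than 0.1 apart.

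The width of the summit was alike. At 0.5 of the height of the smoothed pooled profile it had a median of 350 bp in members and over all strong peaks. A second summit within 1500 bp, at least 300 bp away, was found in 162 members (32.3%). It was found in 23.4% of all strong peaks and in 28.2% of peaks with signal on one side. Among members, centre ratios with a second summit were 0.771 for shSpt4, 0.544 for shSpt5 and 0.735 for shNelfE, and without one 0.797, 0.572 and 0.726.

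How strongly the flanks were occupied went with the flank ratio. In the 168 members with most flank tags (377 to 2834 pooled) the flank medians were 0.749 for shSpt4, 0.668 for shSpt5 and 0.818 for shNelfE. In the 167 with fewest (183 to 259) they were 0.850, 0.836 and 0.868. The 624 windows, with ratios over 1, held 1.94 pooled tags per kb, and their part in this gradient was not tested. The centre medians of the same groups were 0.744, 0.564 and 0.727 in the stronger and 0.829, 0.559 and 0.736 in the weaker.

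Left and right sides were alike only in part. The intervals of the left and right ratios to shControl did not overlap in 14 members in shSpt4 (2.79%, against 1.26% over all strong peaks), in 24 in shSpt5 (4.78%, against 2.6%) and in 7 in shNelfE (1.39%, against 0.854%). At peaks with signal on one side the shares were 2.52%, 6.34% and 2.01%, above those of members in shSpt5 and shNelfE. Intervals narrow as tags rise, and the typical strong peak had fewer flank tags than members. Across the 502 members the left and right log2 ratios had a Pearson correlation of 0.27 for shSpt4, 0.32 for shSpt5 and 0.23 for shNelfE. These describe peaks within a pair of libraries, which share depth and the same control library, and peaks are not replicates. Centre and flank log2 ratios correlated at 0.43 for shSpt4, 0.46 for shSpt5 and 0.15 for shNelfE, against 0.19, 0.20 and 0.07 over all strong peaks, whose flanks held fewer tags. At peaks with signal on one side the values were 0.34, 0.29 and 0.16, so in shNelfE they were not lower than at members.

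The evenness and height read by the rule can be described in each library, though its tags were part of the pooled values that chose the members. The centre was the highest bin within 10 kb at 468 members for shSpt4, 433 for shSpt5 and 456 for shNelfE, against 468 in shControl. It was not the highest at 69 members in shSpt5, the most of any library. The larger side was under 2 times the smaller at 86.7% of members for shSpt4, 90.6% for shSpt5 and 88.6% for shNelfE, against 89.2% for shControl.

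The member with most tags at both the centre and the flanks was on chromosome 8, 87552000 to 87552999. Its centre held 332 tags for shSpt4, 287 for shSpt5 and 416 for shNelfE, against 386 in shControl, and its flanks held 598, 536 and 638 tags in the knockdowns, against 1062. The centre ratios were 1.03 for shSpt4 (0.887 to 1.20), 0.756 for shSpt5 (0.647 to 0.883) and 1.16 for shNelfE (1.01 to 1.34), whereas the flank ratios were 0.674 (0.609 to 0.746), 0.513 (0.462 to 0.570) and 0.648 (0.587 to 0.716). Flanks were thus lower relative to the centre in all 3 knockdowns, the reverse of the typical member in shSpt5 and shNelfE. With 1 tag kept per position and strand, so dense a centre has a ceiling on its count, and repeated reads made up 14.1% to 21.9% of reads in member centres.

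Other dense centres did not share a direction. On chromosome 1, 88190000 to 88190999, the centre held 306, 280 and 307 tags in shSpt4, shSpt5 and shNelfE, against 416 in shControl, for ratios of 0.881, 0.685 and 0.796. On the same chromosome, 72159000 to 72159999, it held 304, 387 and 340 tags, against 259, for ratios of 1.41 (1.19 to 1.67), 1.52 (1.3 to 1.79) and 1.42 (1.20 to 1.67). There the flanks were lower, at 0.808 for shSpt4, 0.801 for shSpt5 and 0.566 for shNelfE, and a further strong bin lay 11 kb to the right, just outside them. Chromosome 5, 115750000 to 115750999, also had centre ratios over 1, at 1.44, 1.23 and 1.32. None of these centres passed the call.

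The lowest centre ratio in shSpt5 was on chromosome 13, 44913000 to 44913999. Its centre held 52 tags for shSpt4, 3 for shSpt5 and 101 for shNelfE, against 226 in shControl. The flanks held 205, 55 and 283 tags, against 352. The centre ratios were 0.276 for shSpt4 (0.200 to 0.374), 0.0135 for shSpt5 (0.00276 to 0.0400) and 0.482 for shNelfE (0.378 to 0.612), all called lower. Its flanks passed the call in shSpt5 alone, at 0.159 (0.117 to 0.212), against 0.697 in shSpt4 and 0.867 in shNelfE. The signal ran for 47 kb without a bin under 10 pooled tags, and across the bins shown for this peak no bin in shSpt5 had more than 8 tags.

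Low centres in shSpt5 were also found at other members. On chromosome 1, 183758000 to 183758999, the centre held 11, 1 and 45 tags in shSpt4, shSpt5 and shNelfE, against 58 in shControl. On chromosome 7, 143315000 to 143315999, it held 36, 2 and 36 tags, against 55, so that shSpt5 alone passed the call. On chromosome 4, 132957000 to 132957999, it held 52, 5 and 47 tags, against 79, and shSpt5 alone was called. Counts this low make the ratios of 0.0175, 0.0370 and 0.0644 in shSpt5 imprecise, and their intervals reached up to 0.102, 0.140 and 0.157.

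Flanks were lowest in shSpt5 on chromosome 13, at the peak just described, on chromosome 8, 97068000 to 97068999, and on chromosome 1, 91762000 to 91762999. The chromosome 8 peak had 219, 116 and 333 flank tags in shSpt4, shSpt5 and shNelfE, against 462 in shControl, and a centre of 91, 28 and 167 tags, against 159. Its centre ratio was 0.179 in shSpt5 and 1.13 in shNelfE. The chromosome 1 peak had flank ratios of 0.786, 0.305 and 0.525, with 0.680, 0.110 and 0.484 at the centre.

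The lowest centres in shSpt4 were at other peaks. Chromosome 5, 119931000 to 119931999, had 18 centre tags for shSpt4, 57 for shSpt5 and 52 for shNelfE, against 111 in shControl, for ratios of 0.194 (0.111 to 0.321), 0.522 and 0.505. Chromosome 12, 87359000 to 87359999, had 21, 53 and 94 tags, against 129. The ratio there was 0.195 for shSpt4, 0.418 for shSpt5 and 0.786 for shNelfE, and the flank ratio in shSpt4 was 0.338. A second member 20 kb to the right, at 87379000 to 87379999, had 8, 13 and 45 centre tags, against 41, and its ratios were 0.234 for shSpt4, 0.323 for shSpt5 and 1.18 for shNelfE. At both members shSpt4 was lowest and shSpt5 next. Chromosome 16, 84656000 to 84656999, had 10, 14 and 34 tags, against 58, with flank ratios of 0.903, 0.861 and 0.946. Chromosome 10, 75379000 to 75379999, had the lowest flank ratio in shSpt4, with 59 tags for shSpt4, 70 for shSpt5 and 136 for shNelfE, against 211. Chromosome 7, 127000000 to 127000999, was the third lowest, after the chromosome 12 peak, with 90, 122 and 143 flank tags, against 280.

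In shNelfE the lowest centre was on chromosome 11, 115640000 to 115640999. It held 8 tags for shSpt4, 46 for shSpt5 and 12 for shNelfE, against 41 in shControl. The ratios were 0.234 (0.0946 to 0.505), 1.14 (0.733 to 1.78) and 0.316 (0.151 to 0.612), so shSpt4 and shNelfE passed the call and shSpt5 did not. On chromosome 7, 140912000 to 140912999, all 3 knockdowns passed it, with 19, 10 and 21 tags, against 71. On chromosome 10, 79723000 to 79723999, shNelfE alone passed it, with 33, 30 and 19 tags, against 58. The only flanks called lower in shNelfE were on chromosome 4, 129003000 to 129003999, with 40, 53 and 39 tags, against 87.

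Few members were called higher than the control. Chromosome 3, 129209000 to 129209999, had 58 centre tags for shSpt4, 40 for shSpt5 and 15 for shNelfE, against 17 in shControl. Its flanks held 145, 121 and 60 tags, against 71. The centre ratios were 4.09 for shSpt4 (2.35 to 7.48), 2.39 for shSpt5 (1.33 to 4.50) and 0.952 for shNelfE (0.443 to 2.03), so the libraries fell into 2 pairs. Chromosome 14, 47584000 to 47584999, had 36, 33 and 23 tags, against 15, with called ratios of 2.87 in shSpt4 and 2.24 in shSpt5 and an uncalled 1.65 in shNelfE. Chromosome 1, 36501000 to 36501999, was called higher in shSpt4 alone, with 41, 29 and 12 tags, against 19, and its ratio of 2.58 came to 1.96 when scaled by the 624 windows. In shSpt5, chromosome 11, 58770000 to 58770999, was highest, at 33, 70 and 25 tags, against 27, a ratio of 2.64. Chromosome 10, 77453000 to 77453999, was also called higher there, at 30, 45 and 30 tags, against 21. The only flanks called higher in shSpt5 were on chromosome 2, 167898000 to 167898999, at 42, 72 and 42 tags, against 35, while its centre was called lower there, at 0.481.

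Some members differed most among the knockdowns. On chromosome 1, 72145000 to 72145999, the centre held 57 tags in shSpt5 and 18 in shSpt4, with 53 in shNelfE and 84 in shControl. On chromosome 5, 143086000 to 143086999, it held 19 tags in shNelfE and 67 in shSpt4, with 39 in shSpt5 and 34 in shControl. Called lower centres with another knockdown near the control were found at peaks named above. Examples were 87379000 on chromosome 12 (0.234 in shSpt4, 1.18 in shNelfE) and 97068000 on chromosome 8 (0.179 in shSpt5, 1.13 in shNelfE). Another was 115640000 on chromosome 11 (0.316 in shNelfE, 1.14 in shSpt5).

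**Figure D4:**
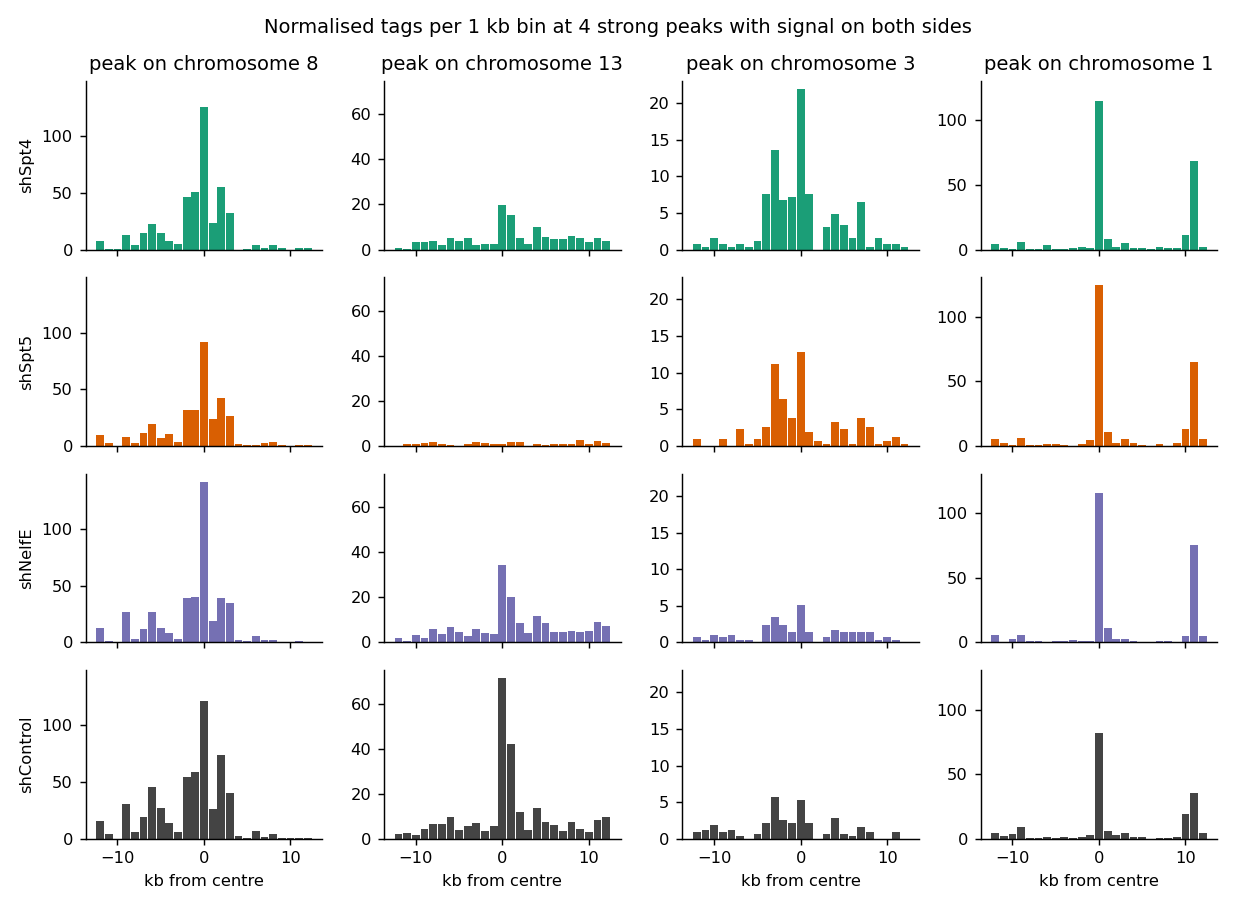
Normalised tags per 1 kb bin from 12 kb left to 12 kb right of 4 named peaks, a row for each of shSpt4, shSpt5, shNelfE and shControl, with a shared scale within a column. In shSpt5 the peak on chromosome 13 holds 3 centre tags and 55 flank tags, against 226 and 352 in shControl. Scaled by all kept tags, that on chromosome 3 is high in shSpt4 and shSpt5. Under the same scaling that on chromosome 8 has lower flanks but not lower centres in shSpt4 and shNelfE, and that on chromosome 1 is higher at the centre in all 3 knockdowns.

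A stretch near the start of chromosome 11 held 3 of the 5 members with most flank tags. Their centres started at 3046000, 3062000 and 3093000, within a run of 71 kb. The flanks of the first held 445 tags for shSpt4, 630 for shSpt5 and 655 for shNelfE, against 652 in shControl, for ratios of 0.817 (0.723 to 0.924), 0.983 and 1.08. The flank ratios of the others were between 0.933 and 1.19. Their centres were lower, with ratios from 0.527 to 0.868 over the 3 members and 3 knockdowns. The flanks of the first and second share bins, so they are not separate measurements. The fifth, chromosome 5, 123399000 to 123399999, had 448, 369 and 323 flank tags, against 527.

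Chromosome 13 held 5 members between 21725000 and 23589999, chosen for mention after their values were seen, at which no centre was called in either direction. Their centre ratios ran from 1.04 to 1.52 for shSpt4, from 0.914 to 1.23 for shSpt5 and from 1.10 to 1.46 for shNelfE. The most occupied, 23563000 to 23563999, had 255, 330 and 276 centre tags in shSpt4, shSpt5 and shNelfE, against 272, and 235, 216 and 206 flank tags, against 256, for flank ratios of 1.10, 0.858 and 0.868. Its neighbour at 23589000 had 304, 358 and 262 flank tags, against 238. The 12 members of chromosome 13 had log2 centre medians of 0.11, -0.10 and 0.10 in the same order of knockdowns, the only chromosome on which the median in shSpt4 or shNelfE was above 0.

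Members lay closer to other strong peaks than most. The nearest other strong peak was at a median of 30 kb, against 55 kb over all strong peaks and 45 kb at peaks with signal on one side. It lay within 20 kb at 157 members (31.3%, against 15.9% and 19.1%). The 101 kb round a member held a median of 1922 pooled tags, against 1214 over all strong peaks and 1542 at peaks with signal on one side. These sums include the centre and the flanks, which the rule required to be high in members. For 163 members the nearest strong peak was also a member (32.5%, against 12% of all strong peaks). Flanks of 90 members shared at least 1 bin with another member, over 302 bins in all, so the flank values of those members are not independent.

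With neighbours counted as one group when at most 200 kb apart, 47 members fell into 7 groups of 5 or more. This grouping was added after the values were seen. The largest, 10 members between 79073000 and 79802999 on chromosome 10, had median centre ratios of 0.900 for shSpt4, 0.614 for shSpt5 and 0.819 for shNelfE. The 9 members between 73163000 and 73768999 on chromosome 8 had 0.776, 0.40 and 0.615 at the centre but 0.884, 0.943 and 0.869 in the flanks. The 6 members between 87392000 and 87868999 on the same chromosome, the peak with most tags among them, had 0.608, 0.514 and 0.722 at the centre and 0.710, 0.526 and 0.708 in the flanks. The 5 members between 28760000 and 29191999 on chromosome 17 had 1.13, 1.04 and 0.590 at the centre. Groups of neighbours thus differed in whether centres, flanks or both were lower and in which libraries.

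Chromosome 8 carried 70 members (13.9%), although it held 6.85% of all strong peaks. Of its strong peaks 21.8% were members, against 10.7% over chromosomes 1 to 19. It also had the highest tag density in occupied bins under 30 pooled tags, at 6.15 pooled tags per bin, where the other chromosomes had between 3.99 and 5.75. When tags were first scaled to the same low-bin density on each chromosome, 442 members were chosen, 415 of them in common, and chromosome 8 held 34 (7.69%). Without chromosome 8, the remaining 432 members had medians within the intervals of the full set in every comparison. Chromosomes 7 and 11 came next, with 51 members each.

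**Figure D5:**
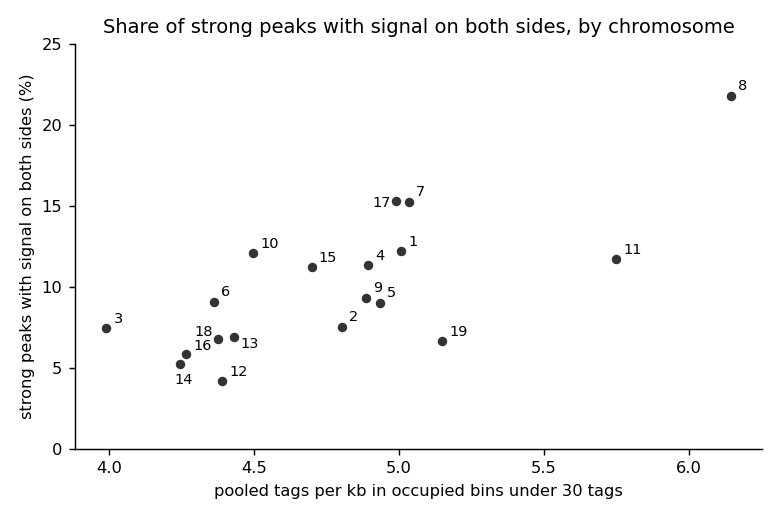
Share of strong peaks with signal on both sides (%) against pooled tags per kb in occupied bins under 30 tags, a point per chromosome from 1 to 19. Chromosome 8 has the highest value on both axes, at 21.8% and 6.15 tags.

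The members nearest the limits of the rule show how sharp the choice was. A centre on chromosome 8, 12395000 to 12395999, had 100 pooled tags and was kept, and one on chromosome 2, 32451000 to 32451999, had 99 and was not. Of the members, 27 had a centre under 110 tags, and 54 bins of 90 to 99 tags met all other conditions. On chromosome 1 a peak at 190708000 had a smaller side of 90 and one at 134958000 had 89. In 102 members the smaller side was under 100. The peak on chromosome 19 at 5802000 had a larger side just under 2 times the smaller and was inside, and that on chromosome 8 at 108597000 had 2.02 and was outside. In 58 members this quotient was above 1.8, and 180 strong peaks with both sides at 90 or more were left out by it. Ties kept 4 members.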

How the data were processed

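The deposited values were signed read positions, a number per aligned read whose sign gives the strand, with no normalization, per the file headers. The authors used Bowtie and the mouse build mm8, per the submitters' processing notes, with the options -n 2, -l 36, -e 70, -k 2 and -m 2, per the file headers. Its version is not stated in these sources. Of the 2 read categories in each file, whose difference the headers do not define, the first was used. The background library of whole cell extract was not used here, so a peak marks enriched tags only.

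With Python 3.11.15, numpy 2.4.6, pandas 2.3.3 and scipy 1.17.1, 1 tag per position and strand was kept, moved by 41 bp toward the fragment centre and summed in bins of 1000 bp. Log2 ratios used a pseudocount of 0.5 tags. A ratio's interval is the exact 95% binomial interval given the pair's sum. Medians and quartiles are over peaks, and the interval of a median comes from order statistics over peaks. The calculations were tested on simulated data. Members, lists and tests were chosen with earlier results of these data known.

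Named peaks were the 5 with most centre tags, the 5 with most flank tags, the 3 lowest and 3 highest called ratios to shControl at centre and flanks per knockdown, the 2 lowest and 2 highest centre ratios among knockdowns, and those nearest each limit, with at least 50 tags in the pair where ranked by ratio. All other mentions were chosen after their values were seen.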

Additional observations from a re-analysis of the deposited data

How the results depend on the processing

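Values are log2 medians, given for shSpt4, shSpt5 and shNelfE against shControl where there are 3. No paired analysis was possible because each group holds 1 library, and no library could be left out of a group. Scaling moved most: by the 624 windows the centres were at -0.74, -1.46 and -0.80, called lower at 27.9%, 79.1% and 26.5% of members (21.7%, 77.2% and 24.5% of all strong peaks), and the flanks at -0.71, -1.04 and -0.58. Among knockdowns that scaling gave -0.74 (shSpt5 over shSpt4) and 0.67 (shNelfE over shSpt5) at the centre and -0.29, 0.14 (shNelfE over shSpt4) and 0.46 in the flanks. By the median strong peak the centres were at -0.071, -0.090 and -0.022, called at 5.38%, 11.2% and 1.20% (2.58%, 6.17% and 0.576% of all), and the flanks at -0.044, 0.33 and 0.20, the last 2 reversed. Among knockdowns it gave -0.038, 0.061 (shNelfE over shSpt4, reversed) and 0.082 at the centre, and 0.41 (shSpt5 over shSpt4, reversed), 0.26 and -0.13 (shNelfE over shSpt5, reversed) in the flanks. With all reads kept (726 members, 486 in common) the centres were at -0.39, -0.94 and -0.49, with 46.3% called in shSpt5 (38% of all), the flanks in shNelfE at -0.19, and centre over flanks at -0.10, -0.58 and -0.32. Flanks of bins 3 to 10 chose 309 members, with 0.13 for shNelfE over shSpt4 flanks. Chosen without shControl, 406 members gave -0.76 and 33.7% called in shSpt5 (27.4% of all). A stricter choice left 118, with -0.40 at shSpt4 centres, -0.53 in shSpt5 flanks, -0.14 for shSpt5 over shSpt4 flanks and 0.32 for shNelfE over shSpt5 centres. Taking off background gave flanks of -0.39, -0.56 and -0.29, 0.25 for shNelfE over shSpt5 flanks and -0.35 for shSpt5 centre over flanks; calls were not recomputed there, since the interval needs whole tags. A second peak of 50 tags and 1/2 of the side gave 401, 87 and 14 members with none, 1 and both sides, with -0.34 (shSpt4 flanks, none) and -0.51 and -0.26 (shSpt5 and shNelfE centres, both sides). Unmoved tags, bins shifted by 500 bp (502 members, 367 in common), equal depth (359) and, added after seeing the data, chromosome scaling and leaving out chromosome 8 kept these medians within their intervals, as did a pseudocount of 1, run for centre over flanks alone. Other shares of members, called or with sides apart, also left their intervals. Scaling by the median strong peak moved 9 of them, the 624 windows 8 and the stricter choice 6. The choice without shControl moved 3, shifted bins 2, flanks of bins 3 to 10 also 2, and equal depth 1. Of 153 ratios of named peaks under the alternatives, 143 kept their call, 10 lost it, and none reversed. The cause of these moves was not tested.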
